A study of Mus musculus with 6 samples.

Results

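The genes described here serve protein folding, translocation and stress signalling in the endoplasmic reticulum (ER) of mouse CD8+ T cells. They were chosen by name, as 38 symbols for ER chaperones, disulfide isomerases, ER-associated degradation, the translocon and the IRE1 and ATF6 arms of stress signalling, without ATF4 and CHOP. All 38 were found among the 41095 genes of a table of FPKM values, in which the reads of a gene are divided by its length in kilobases and by the size of the library. RNA sequencing compared acetate-treated cells (3 libraries) with untreated control cells (3 libraries). Both came from spleens of mice labelled wild type (WT), by positive selection of CD8+ cells, and were cultured for 72 h with IL-2 (30 U/mL) in plates coated with antibodies to CD3 at 5 µg/mL and to CD28 at 2 µg/mL. Acetate was given for 48 h at what was read as 5 mmol/L, because the label's unit is malformed. The design text calls the cells "before" and "after" acetate, so a difference in time in culture and the effect of acetate cannot be told apart. Strain, sex, age and any pooling of animals are not given in the labels, nor whether libraries of a group came from separate cultures. The p-values therefore measure the spread between these libraries, which may be technical.

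Proteins that enter the secretory pathway are threaded into the ER through the Sec61 channel, folded there by chaperones and disulfide isomerases, and, when they fail to fold, returned to the cytosol for destruction by ER-associated degradation. Membrane sensors, among them IRE1 and ATF6, respond to unfolded protein by activating transcription factors that raise the genes of this machinery. Activated CD8+ T cells use the pathway to make cytokines, surface receptors and cytotoxic granule proteins.

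Of the 38 genes, 37 averaged 1 FPKM or more across all 6 libraries and were tested, as part of 10867 genes. With acetate 15 of the 37 rose (40.5%) and 7 fell (18.9%, near the 16.9% of all tested genes) (limma, adjusted p under 0.05). Among all tested genes 38.9% were called, 22.0% higher and 16.9% lower, and 45.1% were called among those with a mean of at least 5 FPKM, a level that 35 of the 37 reached. In 26 of the 37, or 70.3%, the acetate and control values did not overlap, against 51.9% of all tested genes. Both shares use the deposited scaling. The 51.9% is not matched for level, and the median percentile of the 37 by mean FPKM was 84.3. Among the members the sensor genes Ern1 and Atf6 and 4 of 7 tested degradation genes fell, while 2 of the 7 rose. Rises were called in 2 of 4 J proteins, 3 of 4 disulfide isomerases and 3 of 4 translocon-associated protein (TRAP) complex genes. These roles were picked out after the calls were seen. With libraries rescaled to equal sums their rises numbered 2, 2 and 1, and the J protein gene Dnajc10 fell. The major chaperone genes Hspa5, Hsp90b1, Calr and Canx did not pass. The changes were small, with a median of 0.20 on the log2(FPKM + 1) scale among members that rose and -0.23 among those that fell, against 0.26 and -0.30 for all genes called.

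Values with ± are means and SDs over the 3 libraries of a group. The number of rises depended on how libraries were scaled. Summed FPKM over the whole table was 376956 ± 9874 in acetate libraries and 357527 ± 5687 in control libraries (SD, n = 3 each). With libraries rescaled to equal sums (TPM), 6 members were called higher and 8 lower. The split over all genes was then 1403 higher and 2452 lower, against 2393 and 1836 as deposited, and with voom weights on recovered reads it was 2093 and 2527. Rises were 42.9% of member calls with TPM and 36.4% of all calls, against 68.2% and 56.6% as deposited. Of the 22 calls, 11 held under every alternative that tested them. Those were the rises of Sdf2l1, Dnajb11, Dnajc3, Pdia3, P4hb and Ssr1 and the falls of Ern1, Atf6, Herpud1, Derl1 and Dnajc10.

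**Figure D1:**
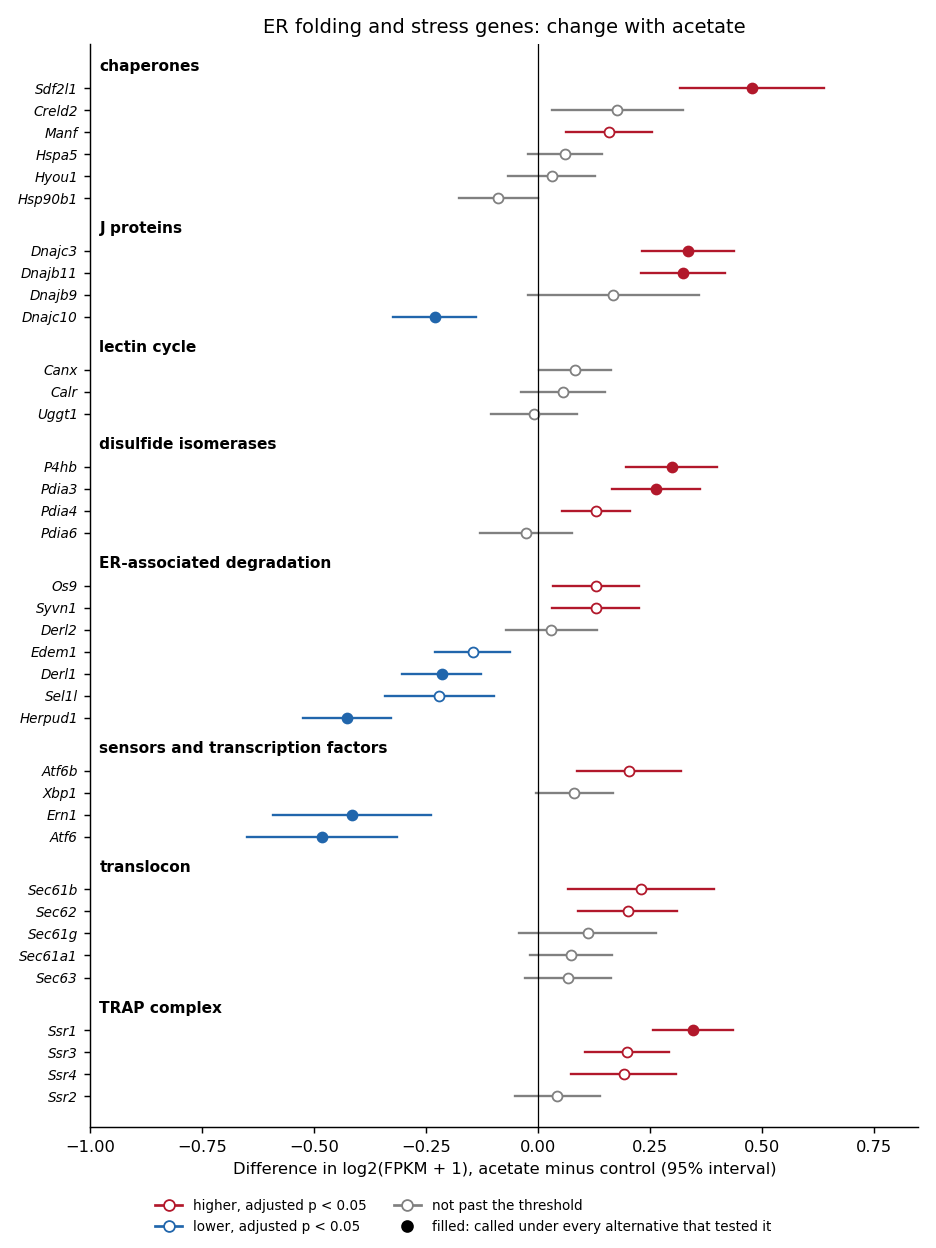
Each point is the difference in log2(FPKM + 1) between acetate and control libraries (n = 3 each) for 1 of the 37 tested genes, with its 95% limma interval, grouped by role. Filled points are the 11 calls that held under every alternative that tested them, 6 to the right of 0 and 5 to the left.

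Recovered reads ran from 31098394 to 39140711 per library, and the least abundant tested member, Ern1, held at least 386 reads in each. The CD8 T cell markers Cd8a, Cd8b1, Cd3d, Cd3e and Cd3g summed to between 1255 and 1350.3 FPKM in acetate libraries and between 1195 and 1224 FPKM in control libraries, with Cd8a and Cd3g called higher. Cd8b1 lay lower in every acetate library than in any control library without passing (adjusted p = 0.139), and was called lower under TPM, quantile, cyclic loess and voom (adjusted p = 0.00202 to 0.0111), while the Cd8a call was lost with cyclic loess (0.0576). Of 8 plasma cell markers, a cell type rich in ER, 2 reached the filter, Igkc and Prdm1, and neither passed. All 8 together summed to 5.68 to 6.88 FPKM in acetate libraries and 4.94 to 6.09 FPKM in control libraries, and Tnfrsf17 was at 0 reads in every library. Prdm1, which can also be transcribed in activated T cells, was at 3.14 ± 0.15 FPKM with acetate and 2.79 ± 0.0835 FPKM in controls. Of 6 B cell markers only Cd79b reached the filter, and the list summed to 17.2 to 18.4 FPKM with acetate and 17.2 to 18.9 FPKM in controls. Lists for CD4 and regulatory T cells (2 markers), natural killer cells (2), myeloid cells (4 matched) and erythroid cells (2 matched) had no gene at the filter and summed to at most 1.21 FPKM in any library, with Itgam at 0 reads throughout. The part of other cells in the differences was not tested. In these bulk samples fewer cells of a type and less RNA per cell cannot be told apart.

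Among the sensors, Ern1 encodes IRE1, the kinase and endonuclease that splices Xbp1 mRNA. Ern1 had 1.73, 1.44 and 1.54 FPKM in acetate libraries, against 2.45, 2.39 and 2.43 FPKM in control libraries. Every acetate value lay below every control value. The ratio of mean FPKM, control over acetate, was 1.54, and the change on the log2(FPKM + 1) scale was -0.42 (SE 0.08, adjusted p = 0.00486). The scale understates such low genes, and with a pseudocount of 0.1 the change of Ern1 was -0.60.

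Atf6 encodes the membrane-bound transcription factor that is cut free in the Golgi under stress. Atf6 was at 2.23, 2.18 and 1.87 FPKM with acetate and at 3.43, 3.22 and 3.32 FPKM in controls, again without overlap. Its change was -0.48 on the log2(FPKM + 1) scale (SE 0.07, adjusted p = 0.0021), and the control mean was 1.59 times the acetate mean. These are the least abundant tested members, at percentiles 16.4 (Atf6) and 10.8 (Ern1) of all tested genes by mean FPKM.

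The related factor gene Atf6b went the other way. Atf6b was at 34.6, 33.7 and 35.4 FPKM with acetate and 31.1, 27.8 and 30.8 FPKM in controls, a rise of 0.20 on the log2 scale (SE 0.05, adjusted p = 0.0159). The call of Atf6b was lost with TPM, quantile and cyclic loess scaling (adjusted p = 0.0732 to 0.118). The ratio of Atf6b to Atf6 FPKM, formed after their values were seen, was 15.5, 15.5 and 18.9 in acetate libraries and 9.07, 8.65 and 9.28 in control libraries. Xbp1, whose spliced mRNA encodes the factor downstream of IRE1, was at 46.7, 47.1 and 45.0 FPKM with acetate and 43.1, 44.9 and 43.0 FPKM in controls. The acetate values of Xbp1 all lay above the control values, but the difference of 0.08 on the log2 scale (95% interval -0.0046 to 0.17) did not pass (adjusted p = 0.12). The table gives 1 value per gene, so spliced and unspliced Xbp1 cannot be told apart.

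**Figure D2:**
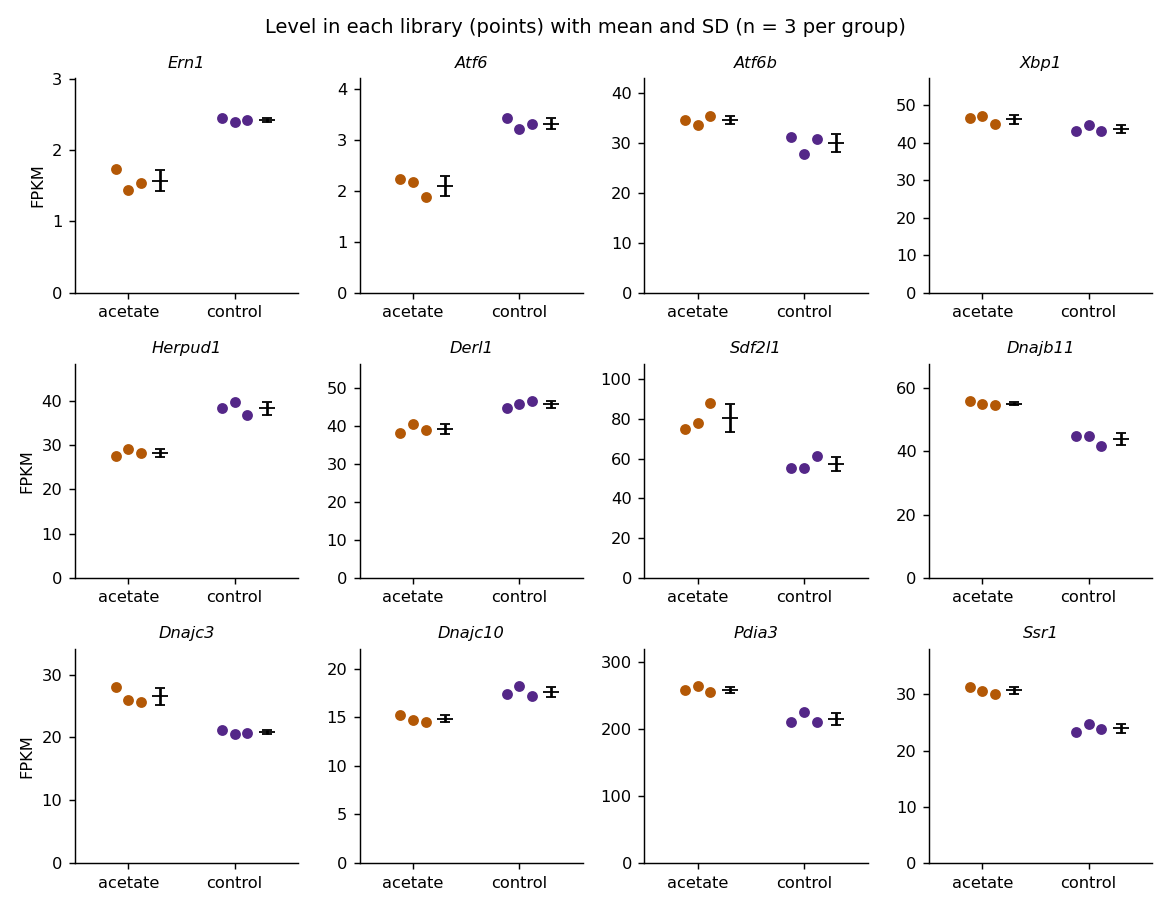
Points give FPKM of 12 genes in each acetate library (left) and control library (right), with group mean and SD (n = 3) beside them. All axes start at 0; groups do not overlap in any panel, with Ern1, Atf6, Herpud1, Derl1 and Dnajc10 lower and the others higher in acetate libraries.

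Of the 7 tested degradation genes, Herpud1 had the largest change. It encodes HERP, a membrane protein that helps assemble the degradation complex around the HRD1 ubiquitin ligase. Herpud1 had 27.5, 29.2 and 28.1 FPKM with acetate, against 38.4, 39.7 and 36.9 FPKM in controls. The 2 groups stood well apart, with a control mean 1.36 times the acetate mean and a change of -0.43 on the log2 scale (SE 0.04, adjusted p = 0.000436). The gene lies on chromosome 8 from 99297839 to 99306760 in the positions the table gives, which are not mm10 positions.

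The other degradation genes moved in both directions. Derl1, a candidate channel subunit, was at 39.2 ± 1.25 FPKM with acetate and 45.6 ± 0.913 FPKM in controls and fell (adjusted p = 0.00413). Sel1l, the adaptor of HRD1, was at 16.6 ± 1.03 FPKM with acetate and 19.5 ± 0.676 FPKM in controls (adjusted p = 0.0139), a fall that missed the threshold without acetate replicate 2 (adjusted p = 0.0522). Edem1, which hands misfolded glycoproteins to degradation, was the most abundant of the group, with 46.7, 44.0 and 44.9 FPKM with acetate and 50.6, 49.3 and 50.4 FPKM in controls. Its fall of 0.15 on the log2 scale (adjusted p = 0.0165) was lost without acetate replicate 2 or control replicate 1 or 3 (adjusted p = 0.0529 to 0.0687).

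Syvn1, the gene of HRD1 itself, rose with acetate, at 10.2 ± 0.118 FPKM against 9.20 ± 0.307 FPKM in controls (adjusted p = 0.044). Os9, a lectin of the same complex, rose, at 40.1 ± 1.25 FPKM with acetate against 36.6 ± 1.31 FPKM in controls (adjusted p = 0.0422). Both calls were near the threshold. Each was lost when any acetate library or control replicate 2 or 3 was left out, with adjusted p = 0.083 to 0.135 for Syvn1 and 0.054 to 0.128 for Os9. Both were also lost with no filter, under TPM, median centring, quantile, cyclic loess and voom, and with the replicate block, where adjusted p reached 0.374 for Syvn1 and 0.338 for Os9, both with TPM. Os9 was lost with no trend as well. The TPM changes were 0.06 for each on the log2 scale, against 0.13 as deposited. Syvn1 also shares 83 bases of its span with Mrpl49 on the other strand, and the counting is not stated to use strand. Derl2 was at 11.6 ± 0.242 FPKM with acetate and 11.4 ± 0.453 FPKM in controls with groups that overlapped, and its difference of 0.03 on the log2 scale had a 95% interval of -0.07 to 0.13 (adjusted p = 0.63). Derl3, below the filter, held 51, 36 and 29 reads with acetate and 26, 25 and 12 reads in controls. Its groups did not overlap, but it did not pass when all 23090 genes with any reads were tested (limma adjusted p = 0.127).

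Because ER stress genes are known for shared promoter elements, the window from 250 bases before to 50 bases after the start site was searched in RefSeq's GRCm38.p6 sequences, which held 32 of the 38 genes. The elements were the ER stress response element ERSE, which is CCAAT, any 9 bases and CCACG, and its variant ERSE-II, which is ATTGG, any 1 base and CCACG. ATF6 and XBP1 are known to act on ERSE together with the CCAAT factor NF-Y. Also searched were the XBP1 site TGACGTGG and the C/EBP-ATF element TGATGCAA, which ATF4 binds with a partner. Both strands were read and only exact letters counted, and no printed match of 1 element overlaps another. A match describes the letters in the window, and no match says only that they are not there. ERSE stood in 9 of the 32 genes, or 28.1%, against 0.161% of the 7474 tested genes with a window, and ERSE-II in 2 of 32, against 0.107%. Only 12 of the 7474 tested genes held ERSE, and members are among them. The members were chosen by name as ER stress genes, which are known for these elements, so the contrast was built into the choice. TGACGTGG stood in none of the 32 genes and in 1.04% of tested genes, and TGATGCAA in 1 and in 0.696%. The 10 ERSE matches and 2 ERSE-II matches are shown because these letters recur in members of several roles; fixed letters are in capitals and each is written in the direction of the element.
Hspa5: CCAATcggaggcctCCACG
Hsp90b1, farther from the start: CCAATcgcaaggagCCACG
Hsp90b1, nearer to the start: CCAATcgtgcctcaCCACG
Calr: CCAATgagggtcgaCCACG
Canx: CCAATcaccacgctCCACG
Pdia6: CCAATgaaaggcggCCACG
Creld2: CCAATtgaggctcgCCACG
Dnajc3: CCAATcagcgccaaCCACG
Syvn1: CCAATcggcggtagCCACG
Derl3: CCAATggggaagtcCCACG
Herpud1, ERSE-II: ATTGGgCCACG
Dnajb11, ERSE-II: ATTGGcCCACG

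Of the 10 tested genes with either element 4 were called, a share near the 38.9% of all tested genes. Dnajc3, Dnajb11 and Syvn1 rose, the last with a call lost under 12 of the 16 alternatives, Herpud1 fell, and Hspa5, Hsp90b1, Calr, Canx, Pdia6 and Creld2 did not pass, while Derl3 was not tested. Herpud1 was the only one of the 32 genes with the C/EBP-ATF element, read on the opposite strand from -112 to -105 before the start site, and it also held ERSE-II from -52 to -42. The promoters of Herpud1, Dnajc3 and Hspa5 are printed to set a gene that fell beside one that rose and one that did not pass. They cover the 150 bases before the start site on the plus strand, at chr8:94386279-94386428, chr14:118937782-118937931 and chr2:34771940-34772089 in GRCm38.p6, with the matched elements in capitals. The RefSeq start used for Dnajc3 lies 44 bases before the nearest GENCODE M21 transcript start, against 9 bases for Herpud1 and 5 for Hspa5, so its window rests on a start that GENCODE does not place there. The end of the window was found in a GENCODE transcript of the gene for 29 of the 32 genes. The exceptions were Dnajc3, Os9 and Pdia4, so the starts used for Os9 and Pdia4, which held no element, are also less certain.
Herpud1: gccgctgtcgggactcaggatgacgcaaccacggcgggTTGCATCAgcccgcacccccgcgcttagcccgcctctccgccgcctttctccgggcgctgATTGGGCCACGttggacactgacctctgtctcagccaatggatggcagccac
Dnajc3: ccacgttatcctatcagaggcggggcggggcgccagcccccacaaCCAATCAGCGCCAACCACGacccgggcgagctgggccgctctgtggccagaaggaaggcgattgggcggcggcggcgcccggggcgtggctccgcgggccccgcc
Hspa5: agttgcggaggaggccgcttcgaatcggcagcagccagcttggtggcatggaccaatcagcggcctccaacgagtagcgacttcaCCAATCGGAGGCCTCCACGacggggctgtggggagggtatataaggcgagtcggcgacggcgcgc

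Among the chaperones, Hspa5, which encodes BiP, the central HSP70 chaperone of the ER and a repressor of the stress sensors, was the most abundant. It had 269.5, 277 and 278 FPKM with acetate and 268, 262 and 260.0 FPKM in controls. The acetate values lay just above the control values, and the difference of 0.06 on the log2 scale (95% interval -0.02 to 0.14) did not pass (adjusted p = 0.217). Hsp90b1, the HSP90 of the ER, was at 194 ± 2.05 FPKM with acetate and 207 ± 6.30 FPKM in controls (adjusted p = 0.1). Hsp90b1 was called lower under TPM, quantile, cyclic loess and voom (adjusted p = 0.00599 to 0.0119), with log2 changes of -0.13 to -0.19. Hyou1, which exchanges nucleotide on BiP, was at 44.8 ± 1.36 FPKM with acetate and 43.9 ± 1.58 FPKM in controls, without passing (adjusted p = 0.598).

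Sdf2l1, a small luminal partner of BiP and of the J protein ERdj3, had the largest rise among the tested members on the log2(FPKM + 1) scale. Sdf2l1 was at 75.0, 78.0 and 88.2 FPKM with acetate and 55.4, 55.3 and 61.4 FPKM in controls. Even the lowest acetate library stood above the highest control library, and the ratio of means was 1.40 (log2 change 0.48, SE 0.07, adjusted p = 0.0019). Manf, a secreted stress-induced protein that binds BiP, was at 54.8 ± 2.07 FPKM with acetate and 49.0 ± 1.24 FPKM in controls and rose (adjusted p = 0.0194). The span the table gives to Manf also covers 7978 bases of Rbm15b on the same strand, at 17.5 FPKM with acetate and 13.9 FPKM in controls. It shares 46399 bases with Vprbp on the other strand, at 17.6 FPKM with acetate and 17.1 FPKM in controls. How reads were divided between these genes is uncertain. The Manf call was lost without acetate replicate 2 or 3 or control replicate 1 or 3 (adjusted p = 0.0502 to 0.0691). It was also lost with TPM, quantile and cyclic loess scaling (adjusted p = 0.077 to 0.127), where the change was 0.07 to 0.09 on the log2 scale, against 0.16 as deposited. Creld2, another secreted ER stress protein, was at 46.7 ± 4.04 FPKM with acetate and 41.1 ± 1.10 FPKM in controls without passing (adjusted p = 0.0589). Creld2 passed with the filter of 5 FPKM (adjusted p = 0.0423) and without acetate replicate 1 (adjusted p = 0.00629).

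J proteins deliver clients to BiP and start its ATP cycle. Dnajb11, which encodes ERdj3, was at 55.8, 55.1 and 54.6 FPKM with acetate and 44.9, 45.0 and 41.8 FPKM in controls. The acetate libraries agreed closely and all stood above the controls, with a rise of 0.32 on the log2 scale (SE 0.04, adjusted p = 0.00102). The ERSE-II of Dnajb11 lies just past its start site and is shown in capitals within the 30 bases at chr16:22857842-22857871 in GRCm38.p6 (plus strand), because it is the same element as in Herpud1, which fell.
Dnajb11: cccggcggcgATTGGCCCACGcctggctgc

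Dnajc3 encodes p58IPK, a co-chaperone also known as an inhibitor of the kinase PERK. Dnajc3 had 28.1, 25.9 and 25.7 FPKM with acetate and 21.2, 20.6 and 20.7 FPKM in controls, and its groups did not overlap. It rose by 0.34 on the log2 scale (SE 0.04, adjusted p = 0.00129). Dnajc10 encodes ERdj5, a J protein that reduces disulfides of clients bound for degradation, and fell, at 14.9 ± 0.363 FPKM with acetate and 17.6 ± 0.517 FPKM in controls (adjusted p = 0.00388). The ratio of Dnajb11 to Dnajc10 FPKM, formed after their values were seen, was 3.71 ± 0.0493 in acetate libraries and 2.49 ± 0.0761 in control libraries. Dnajb9, the J protein ERdj4, was at 10.8 ± 1.08 FPKM with acetate and 9.53 ± 0.862 FPKM in controls with overlapping groups (adjusted p = 0.143).

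The lectin chaperones hold newly made glycoproteins until they fold. Calr, which encodes calreticulin, was the most abundant member, with 418, 439 and 444 FPKM with acetate and 421, 415 and 417 FPKM in controls. One acetate library lay within the control range, and the difference of 0.06 on the log2 scale (95% interval -0.04 to 0.15) did not pass (adjusted p = 0.31). Canx, which encodes calnexin, was at 206 ± 2.12 FPKM with acetate and 194 ± 3.62 FPKM in controls (adjusted p = 0.0933). Uggt1, which adds back glucose to glycoproteins that are not yet folded, was at 14.3 ± 0.365 FPKM with acetate and 14.4 ± 0.443 FPKM in controls (adjusted p = 0.873). Thus 0 of these 3 genes passed with limma, 1 (Canx) had an unadjusted p under 0.05, and voom called 0. The signs of Hspa5, Hyou1, Calr and Canx turned negative under at least 1 other scaling, and that of Uggt1 turned positive when single libraries were left out, without any of them passing.

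Of the 4 disulfide isomerase genes 3 rose. Pdia3, which encodes ERp57, the partner of calnexin and calreticulin and a part of the peptide-loading complex of MHC class I, was at 258, 264 and 255 FPKM with acetate. Control libraries held 210.2, 225 and 210.3 FPKM of Pdia3. The groups did not overlap, and the rise was 0.26 on the log2 scale (SE 0.04, adjusted p = 0.00275). P4hb, the founding protein disulfide isomerase, was at 194 ± 6.80 FPKM with acetate and 158 ± 5.39 FPKM in controls and rose by 0.30 on the log2 scale (adjusted p = 0.0019). Pdia4, which encodes ERp72, was at 83.2 ± 0.94 FPKM with acetate and 76.0 ± 1.35 FPKM in controls (adjusted p = 0.0182). The Pdia4 rise was lost without acetate replicate 2 or control replicate 1 or 3 (adjusted p = 0.0592 to 0.0701), and under TPM, quantile, cyclic loess and voom (up to 0.436). Pdia6 was not called at 85.7 ± 4.44 FPKM with acetate and 87.3 ± 1.13 FPKM in controls (adjusted p = 0.655), but was called lower with quantile and cyclic loess scaling (adjusted p = 0.0361 and 0.0304).

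At the translocon, the channel gene Sec61a1 was at 34.4 ± 1.06 FPKM with acetate and 32.6 ± 0.879 FPKM in controls and did not pass (adjusted p = 0.179). Its small partner Sec61b was at 31.4 ± 2.86 FPKM with acetate and 26.6 ± 1.35 FPKM in controls and rose (adjusted p = 0.0347). That call was lost without acetate replicate 2 or 3 or control replicate 1 or 3 (adjusted p = 0.0933 to 0.104), and with no filter, no trend, TPM, quantile and cyclic loess scaling (0.0522 to 0.104). Sec61g was at 22.0 ± 1.96 FPKM with acetate and 20.3 ± 0.701 FPKM in controls without passing (adjusted p = 0.217), and passed without acetate replicate 1 (adjusted p = 0.022). Sec62 and Sec63 help load finished proteins into the channel. Sec62, the most abundant gene of this group, was at 44.1, 42.8 and 41.9 FPKM with acetate and 35.1, 37.3 and 39.3 FPKM in controls, without overlap. It rose by 0.20 on the log2 scale (adjusted p = 0.0142), and the call was lost with TPM, quantile and cyclic loess scaling (adjusted p = 0.0594 to 0.126). Sec63 was at 18.8 ± 0.62 FPKM with acetate and 18.0 ± 0.494 FPKM in controls (adjusted p = 0.24).

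The TRAP complex sits beside the channel and aids the entry of some signal sequences. Ssr1, its alpha subunit, was at 31.4, 30.6 and 30.1 FPKM with acetate and 23.3, 24.8 and 23.8 FPKM in controls. The groups stood well apart, with a ratio of means of 1.28 and a rise of 0.35 on the log2 scale (SE 0.04, adjusted p = 0.000681). Ssr3, the gamma subunit and the most abundant, was at 127, 126 and 121 FPKM with acetate and 105, 112 and 109 FPKM in controls and rose by 0.20 (adjusted p = 0.00713). Ssr4, the delta subunit, was at 35.2, 39.7 and 39.1 FPKM with acetate and 33.0, 33.6 and 32.7 FPKM in controls and rose too (adjusted p = 0.0204). Ssr2, the beta subunit, did not pass at 73.8 ± 2.62 FPKM with acetate and 71.6 ± 1.96 FPKM in controls (adjusted p = 0.437). The Ssr3 call was lost with TPM, quantile and cyclic loess scaling (adjusted p = 0.065 to 0.128). The Ssr4 call was lost with these and with no filter (0.0536 to 0.0752), and without acetate replicate 2 or 3 or control replicate 1 or 3 (0.0561 to 0.0731).

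Summed over roles, ER-associated degradation was the only group of the 8 with a lower total in acetate libraries. Its 8 genes summed to 192.3, 191.9 and 191.7 FPKM with acetate and 212.5, 211.6 and 209.6 FPKM in controls, so that the acetate sum was lower by 9.11%. The J protein and disulfide isomerase sums were higher by 16.9% and 15.9%, TRAP by 12.7% and the translocon by 11.1%. The chaperone and lectin sums were higher by 5.19% and 4.48%, close to the 5.43% by which the sum over all genes of the table was higher. A sum of FPKM follows its most abundant genes, so Ern1 and Atf6 weigh little in the sensor sum, which was 6.49% higher.

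**Figure D3:**
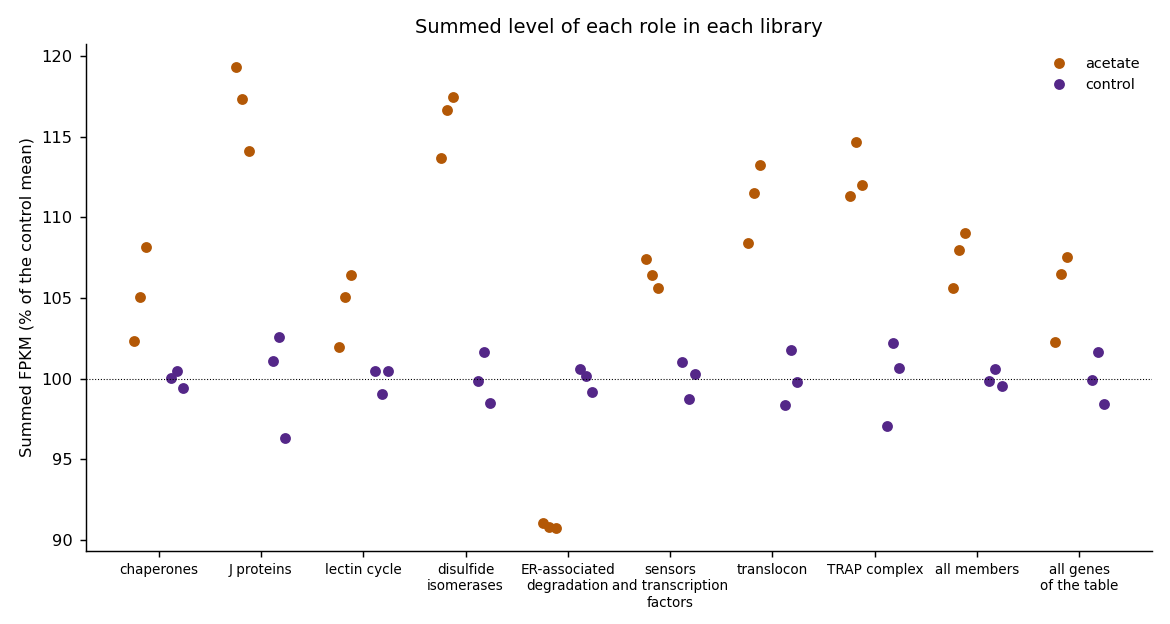
Summed FPKM of each role in each acetate library (left) and control library (right) as a percentage of the control mean. Degradation genes are the only role below 100% with acetate, and the sum over all genes stands 5.43% above its control mean; the vertical axis does not start at 0.

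Outside the 38 genes, 7 lists of further ER genes held 130 genes of the table, of which 118 were tested, 36 rose and 12 fell. With TPM scaling 21 of them were called higher and 19 lower, and with voom 30 and 20. As deposited that is 40.7% called, near the 38.9% of all tested genes, and the median log2 change was 0.06 against 0.02 over all tested genes. ER export and KDEL retrieval genes had 7 rises (31.8%) and 0 falls among 22 tested, against 4 and 1 with TPM. Over all tested genes 22.0% rose and 16.9% fell, the shares to set beside the counts of each list. Sar1a, the GTPase that starts COPII coats, was at 70.4 ± 0.476 FPKM with acetate and 55.1 ± 1.58 FPKM in controls (adjusted p = 0.00047). Kdelr2, which returns escaped ER residents, was at 32.9 ± 0.477 FPKM with acetate and 25.9 ± 1.73 FPKM in controls (adjusted p = 0.00229). In signal recognition, signal peptidase and insertion 6 of 24 rose (25.0%, near the 22.0% of all tested genes) and 0 fell. Tram1, which chaperones entering chains, was at 43.0 ± 1.77 FPKM with acetate and 33.7 ± 1.47 FPKM in controls (adjusted p = 0.00154), and Emc6 of the ER membrane complex was at 61.8 ± 3.08 FPKM with acetate and 49.1 ± 2.26 FPKM in controls (adjusted p = 0.00264). At an unadjusted p under 0.05 there were also 0 falls in both lists, while voom called 2 export genes and 1 signal recognition gene lower.

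Oligosaccharyl transferase and glycan trimming genes showed 7 rises (46.7%) and 2 falls (13.3%) among 15 tested, but 4 and 4 with TPM and 5 and 4 with voom. Dad1 and Rpn1, subunits of the transferase that attaches glycans, were at 21.2 ± 0.889 and 79.2 ± 3.28 FPKM with acetate, against 17.4 ± 0.63 and 67.1 ± 1.47 FPKM in controls, and rose (adjusted p = 0.0033 and 0.00406). Krtcap2, a further subunit, fell, at 46.5 ± 1.44 FPKM with acetate and 53.8 ± 2.33 FPKM in controls (adjusted p = 0.00911). Ganab, the glucosidase II catalytic subunit, fell too, at 72.2 ± 0.971 FPKM with acetate and 80.1 ± 2.87 FPKM in controls (adjusted p = 0.0189), but not without acetate replicate 2 (adjusted p = 0.064) or control replicate 1 (0.0606). Among other folding enzymes 5 of 22 rose (22.7%, near the 22.0% of all tested genes) and 6 fell (27.3%), against 1 and 7 with TPM. The thioredoxin-like Tmx1 and Erp29 rose, at 48.8 ± 1.22 and 11.4 ± 0.487 FPKM with acetate against 41.9 ± 1.62 and 9.49 ± 0.39 FPKM in controls (adjusted p = 0.00573 and 0.00695). The Tmx1 rise missed the threshold with TPM scaling (adjusted p = 0.0511). Cnpy2 and Cnpy3, ER proteins of which Cnpy3 helps fold Toll-like receptors, fell, at 37.5 ± 3.96 and 28.8 ± 1.63 FPKM with acetate against 49.4 ± 2.20 and 34.5 ± 1.40 FPKM in controls (adjusted p = 0.00593 and 0.00754).

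Further degradation genes were called higher in 8 of 22 cases (36.4%) and lower in 1 (4.55%), against 5 and 3 with TPM and 7 and 3 with voom. Vimp, a selenoprotein gene of the ER membrane that recruits the VCP ATPase, was at 64.2 ± 0.766 FPKM with acetate and 49.5 ± 1.49 FPKM in controls (adjusted p = 0.000428). Ufd1l, a VCP cofactor, was at 26.5 ± 0.258 FPKM with acetate and 22.8 ± 0.0414 FPKM in controls and also rose (adjusted p = 0.00268). Ngly1, which strips glycans from chains in the cytosol, fell, at 5.80 ± 0.335 FPKM with acetate and 6.89 ± 0.37 FPKM in controls (adjusted p = 0.0233). The Ngly1 call was lost without the filter and without acetate replicate 1 or 3 or control replicate 2 or 3 (adjusted p = 0.0562 to 0.0742). Vimp, Ufd1l and Ngly1 act at or beyond the ER membrane, and no test compared this list with the 8 degradation genes above.

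Of 12 further sensor and factor genes 2 rose (16.7%) and 3 fell (25.0%). Creb3l2, a membrane-bound relative of ATF6, was at 1.63 ± 0.108 FPKM with acetate and 2.92 ± 0.219 FPKM in controls. It fell by 0.58 on the log2(FPKM + 1) scale (adjusted p = 0.00135). The scale understates this low gene, whose control mean was 1.79 times the acetate mean. Mbtps2 and Mbtps1 encode the site-2 and site-1 proteases that release ATF6, and both were picked with their values known. Mbtps2 fell, at 3.49 ± 0.205 FPKM with acetate and 4.49 ± 0.125 FPKM in controls (adjusted p = 0.00751). Mbtps1 stood at 21.5 ± 0.328 FPKM with acetate and 22.2 ± 0.967 FPKM in controls without passing (adjusted p = 0.452). Of the NF-Y subunit genes, Nfyb fell, at 26.0 ± 0.359 FPKM with acetate and 29.9 ± 0.665 FPKM in controls (adjusted p = 0.00474), and Nfyc rose, at 7.34, 8.33 and 8.33 FPKM with acetate and 7.14, 6.88 and 6.35 FPKM in controls (adjusted p = 0.0382). Nfyc was lost without acetate replicate 2 or 3 or control replicate 2 or 3 (adjusted p = 0.0761 to 0.119), and with no filter, TPM, voom and the replicate block (0.0797 to 0.102). Nfya, named to complete the complex after its values were seen, held 7.08 ± 0.15 FPKM with acetate and 7.32 ± 0.42 FPKM in controls without passing (adjusted p = 0.559). Bak1, a death effector of the Bcl2 family, rose, at 33.2 ± 1.96 FPKM with acetate and 27.1 ± 1.13 FPKM in controls (adjusted p = 0.00542). Of 5 matched substrates of decay by IRE1 only Hgsnat was tested, at 8.44 ± 0.333 FPKM with acetate and 7.53 ± 0.288 FPKM in controls, and it was called higher (adjusted p = 0.0486). Without any 1 of the 6 libraries Hgsnat missed the threshold (adjusted p = 0.0582 to 0.135), as it did with no filter, TPM, median centring, no trend, voom and the replicate block (0.051 to 0.356). With TPM its change was 0.08 on the log2 scale, against 0.15 as deposited. The regulators left out of the 38 genes, Atf4 and Ddit3, which encode ATF4 and CHOP of the PERK branch, both fell. Atf4 was at 166, 178 and 178 FPKM with acetate and 251, 265 and 249.6 FPKM in controls (adjusted p = 0.000226), and Ddit3 was at 10.1 ± 0.315 FPKM with acetate and 34.1 ± 2.06 FPKM in controls (adjusted p = 9.11e-06).

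**Figure D4:**
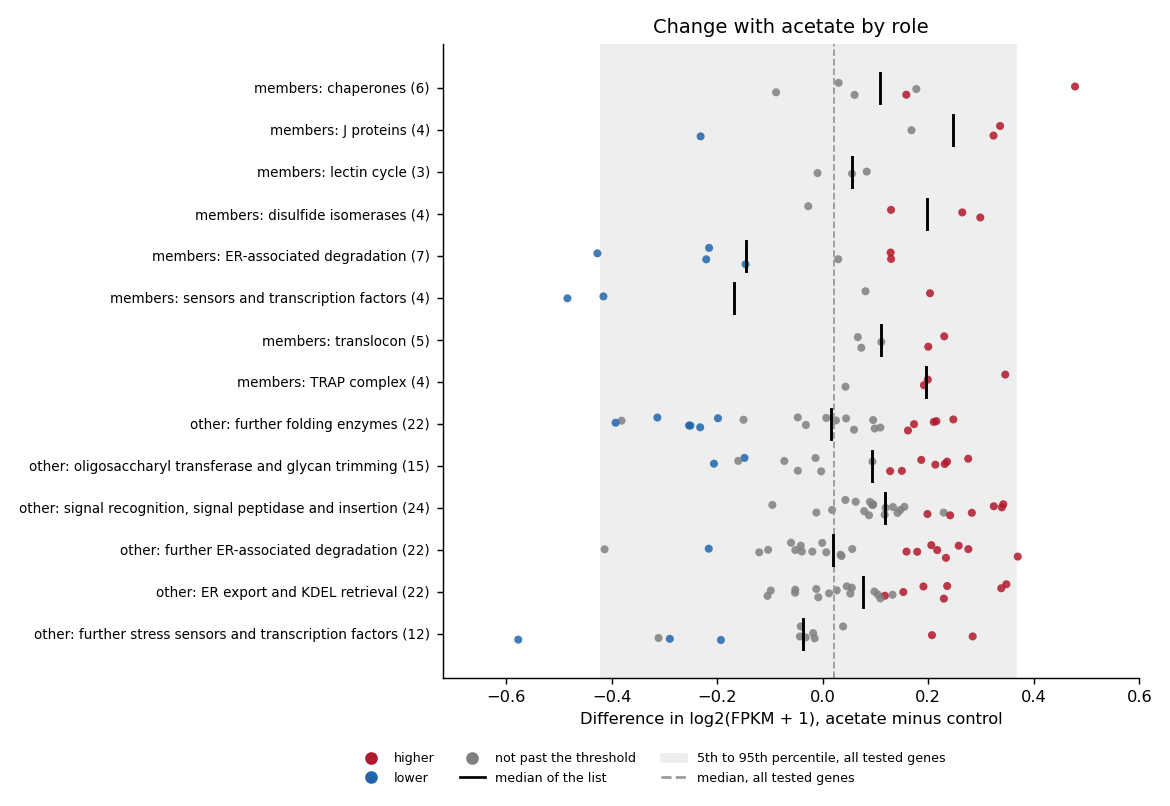
Each point is the difference in log2(FPKM + 1), acetate minus control, of 1 tested gene, by role for the 37 members and by list for further ER genes (number tested in brackets; the list with 1 tested gene is left out). Vertical height within a row is arbitrary; of the members, Atf6 and Herpud1 lie left of the band that holds the 5th to 95th percentile of all tested genes (-0.42 to 0.37), and Sdf2l1 lies to its right.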

How the data were processed

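Members and gene lists were chosen with earlier results of these data known. Per the submitters' processing notes, cutadapt 1.18, HISAT2 2.1.0 and mm10 were the tools and the build. How reads were counted, and whether by strand, is not given in the sources used here. Per gene and library the authors deposited FPKM values, with C57BL/6NJ gene identifiers. Of 29639 genes matched by symbol to GENCODE M21, 0.553% overlapped their GRCm38 position, so positions are printed as the table gives them.

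FPKM times gene length fell on whole multiples of 1 step in 100% of values above 0 (tolerance 0.01 reads), which gave the reads per library. The ratio of recovered reads to the total implied by FPKM was 1.00 to 1.02 in acetate libraries and 0.974 to 0.986 in control libraries. Even numbers were 64.2% to 65.7% of counts up to 40, so both ends of a pair were apparently counted and reads overstate fragments.

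Genes averaging 1 FPKM or more were tested with limma 3.58.1 in R 4.3.3 on log2(FPKM + 1), with an empirical Bayes trend, group as the only term, two-sided, with Benjamini-Hochberg adjustment over all 10867 genes and a threshold of 0.05. Fold values are ratios of mean FPKM. The test was tried on simulated data with few changed genes and no difference in scaling between groups, so the trial does not bear on how scaling affects these results. Alternatives were a pseudocount of 0.1, no filter, a filter of 5 FPKM, TPM, median centring, quantile and cyclic loess scaling, no trend, voom weights on recovered reads, the replicate number as a block, and each library left out. Values in every library are given for called members with a log2 change of at least 0.3 in size, for the most abundant member of each role and for Xbp1, Ern1, Atf6 and Atf6b. Of each further list, up to 2 called genes of lowest p in each direction are named, beside Atf4 and Ddit3.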

Additional observations from a re-analysis of the deposited data

How the results depend on the processing

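Over 16 alternatives, 590 values of the 37 tested members were recomputed, and 490 kept their direction and their side of the threshold. Of the 22 calls 11 changed under some alternative, while the other 11 held. Members called higher numbered 6 with TPM, 6 with quantile and 6 with cyclic loess scaling, against 15 as reported, and 9 to 15 when single libraries were left out. Members called lower numbered 5 to 9 over all alternatives. Genes called higher numbered 1403 with TPM, against 2393. The cause was not tested. No call of opposite sign arose, but 10 members that did not pass changed sign. With TPM the log2 changes were -0.015 for Hspa5, -0.044 for Hyou1, -0.020 for Calr, -0.041 for Derl2, -0.00072 for Sec61a1, -0.0057 for Sec63 and -0.032 for Ssr2. With quantile scaling they were -0.029 for Hspa5, -0.020 for Hyou1, -0.031 for Calr and -0.056 for Ssr2. With cyclic loess they were -0.044 for Hspa5, -0.052 for Hyou1, -0.051 for Calr, -0.019 for Canx, -0.0013 for Xbp1 and -0.049 for Ssr2. With voom they were -0.011 for Hyou1 and -0.0093 for Derl2, and Uggt1 was at 0.0070 without acetate replicate 3 and 0.010 without control replicate 1.

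The labels do not say whether acetate and control libraries of the same number pair. Their deviations from the group mean correlated across genes at -0.054, 0.026 and -0.039. With 3 libraries per group these values cannot settle whether they pair. With the replicate number as a block, 14 members were called higher and 7 lower, and 2052 genes higher and 1548 lower. Under the block Dnajb9 passed (adjusted p = 0.0375) and Syvn1 and Os9 did not. The filter of 5 FPKM left out Ern1 and Atf6. The low read numbers of Derl3 limit its test.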
